A study of Mus musculus and Mus musculus musculus x Mus musculus castaneus with 52 samples.

Results

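Axin2, Rnf43, Znrf3, Nkd1, Sp5, Tcf7 and Cdx1 are target genes of beta-catenin, most of which feed back on the Wnt pathway. They are 7 of the 16687 genes in the RNA table, were chosen by name, and all had reads in this study of mouse pluripotent stem cells. Wnt proteins bind Frizzled receptors and Lrp5 or Lrp6 at the cell surface, which stops a destruction complex from degrading beta-catenin, and beta-catenin then activates genes in the nucleus together with TCF/LEF proteins. In mouse embryonic stem cells this pathway is known to favour self-renewal, and in the embryo it patterns the primitive streak. Axin2 is a scaffold of the destruction complex. Rnf43 and Znrf3 are membrane ubiquitin ligases that remove Frizzled receptors from the cell surface. Nkd1 binds Dishevelled and dampens the signal. Sp5 is a zinc-finger transcription factor, Tcf7 encodes the TCF1 protein that binds DNA with beta-catenin, and Cdx1 is a homeobox factor of the posterior embryo.

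RNA sequencing compared cells with different numbers of X chromosomes. Wild-type (WT) induced pluripotent stem cells (iPSCs, reprogrammed cells; Mus musculus) came from the female lines LV20, LV21 and LV22 and the male lines LV4, LV8 and LV16, each with 1 library at passage 7 (P7) and 1 at passage 13 (P13), by which point the samples of the female lines are called XO. WT embryonic stem cells (ESCs) from a musculus by castaneus cross were the XX lines CM1 and CM2 and the XY lines CM3 and CM7 at passage 5, with 1 library each. A withdrawal experiment removed LIF, a cytokine that keeps mouse ESCs from differentiating, for 24 h in F121 (WT, XX), in V6.5 (WT, XY, Mus musculus) and in 2 female lines labelled Dusp9+/-, which carry 1 mutant copy of the X-linked ERK phosphatase gene Dusp9. F121 and the Dusp9+/- lines also come from a musculus by castaneus cross, and all 4 lines were grown without feeder cells. The study therefore allowed the 7 genes to be compared by X chromosome number, passage, cell origin, LIF and Dusp9 genotype.

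The 24 libraries held 8309171 to 14245900 reads. Values are the deposited log2 CPM, a log2 scale of reads relative to library size (CPM) with an offset, so that a gene with 0 reads stands at -2.45. The 8 pluripotency markers examined were all detected in every library, with a summed level of 1700 to 4910 CPM. In 2 libraries the output of the X chromosome went against the label. The median X-linked gene of LV21 at P7, labelled XX, stood at -0.27 relative to the median autosomal gene on the log2 scale, against 0.36 and 0.46 in LV20 and LV22. LV22 at P13, named XO, stood at -0.26, against -0.66 and -0.75 in LV20 and LV21. Calls of the 7 genes and of named pathway genes that rest on these libraries are given with and without them. Dusp9 itself did not differ by test between the Dusp9+/- lines and F121 with LIF (log2 difference -0.24 ± 0.66, limma adjusted p = 0.836). The lines labelled 1 and 2 lay on either side of F121 at 0 h, at 5.96 and 7.43 log2 CPM against 6.93. At 24 h their order was reversed, with 7.71 and 6.58 against 7.84. Total reads do not separate its alleles, and the lines are named here by their label.

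The promoter sequences of Sp5, Axin2 and Rnf43 are shown because Sp5 had the widest range across libraries, and Rnf43 and Axin2 had the largest called differences of the 7 genes by sex or Dusp9 genotype. Each is the 250 bases before the start annotated in the promoter set, from RefSeq with the build GRCm38.p6, written 5′ to 3′ on the gene's strand, which is the plus strand in all 3 cases. Capitals mark matches, on either strand, to the 4 TCF/LEF-type words CTTTGAA or CTTTGAT or CTTTGTA or CTTTGTT. Rnf43 has a second annotated promoter that is not shown.
Sp5 (chr2:70474673-70474922): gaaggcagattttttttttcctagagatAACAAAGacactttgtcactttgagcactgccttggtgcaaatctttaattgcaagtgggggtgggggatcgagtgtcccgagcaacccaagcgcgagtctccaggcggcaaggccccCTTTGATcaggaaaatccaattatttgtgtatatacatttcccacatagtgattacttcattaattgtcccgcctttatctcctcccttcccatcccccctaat
Axin2 (chr11:108920099-108920348): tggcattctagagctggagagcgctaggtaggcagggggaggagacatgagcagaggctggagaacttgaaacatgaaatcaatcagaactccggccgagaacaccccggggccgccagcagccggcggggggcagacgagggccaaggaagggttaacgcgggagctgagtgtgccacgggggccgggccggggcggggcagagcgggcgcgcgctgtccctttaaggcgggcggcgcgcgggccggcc
Rnf43 (chr11:87662837-87663086): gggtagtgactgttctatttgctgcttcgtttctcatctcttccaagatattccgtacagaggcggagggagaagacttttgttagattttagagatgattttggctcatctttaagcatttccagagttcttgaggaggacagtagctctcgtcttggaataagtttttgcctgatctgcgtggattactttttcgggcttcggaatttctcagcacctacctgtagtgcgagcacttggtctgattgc
The Sp5 window held 2 such words, which begin 222 and 104 bases before the start. The Axin2 window, the Nkd1 window and both windows each of Rnf43 and Tcf7 held none. The Axin2, Nkd1 and Tcf7 windows and the second Rnf43 window lie inside the gene spans given below, not before them. Windows of Znrf3 and Cdx1 are not reported here. Of all 32851 RefSeq promoter windows of this length, 14.8% held at least 1 word, as did 10.7% of those of genes in the table. A match is a description of the letters and says nothing of binding.

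None of the 7 genes is X-linked. In the RefSeq annotation of GRCm38.p6, Axin2 (108917828 to 108950783), Rnf43 (87663087 to 87735539), Znrf3 (5276329 to 5444847) and Tcf7 (52246527 to 52283383) lie on chromosome 11, Nkd1 (88521342 to 88594887) on chromosome 8, Sp5 (70474923 to 70477726) on chromosome 2 and Cdx1 on chromosome 18. Rnf43, Tcf7 and Cdx1 overlap other annotated genes, none of which is in the table, and whether the counting used strand is not given in the sources used here.

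The 7 genes varied very unequally across the 24 libraries. Sp5 had the widest range, from -2.45 log2 CPM in F121 and V6.5 after 24 h without LIF to 4.24 in CM7, and its SD of 1.72 on the log2 scale was higher than that of 98.5% of genes averaging 1 CPM or more. Znrf3 had the narrowest, from 5.29 in V6.5 at 0 h to 5.92 in CM3, with an SD of 0.16, higher than that of only 5.6% of genes. Although Rnf43 and Znrf3 encode enzymes of the same kind, Rnf43 ran from -1.20 to 2.66 log2 CPM. Cdx1 ran from -2.45 to 2.63, Axin2 from 3.04 to 6.39, Nkd1 from 0.22 to 2.68 and Tcf7 from 6.06 to 7.68. Rnf43 (3 to 52 reads per library), Cdx1 (0 to 60), Nkd1 (10 to 80) and Sp5 (0 to 241) rest on few reads, while Axin2, Znrf3 and Tcf7 had at least 95, 389 and 763 reads in every library. These are bulk libraries, in which fewer cells that express a gene and less RNA of it per cell cannot be told apart.

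**Figure D1:**
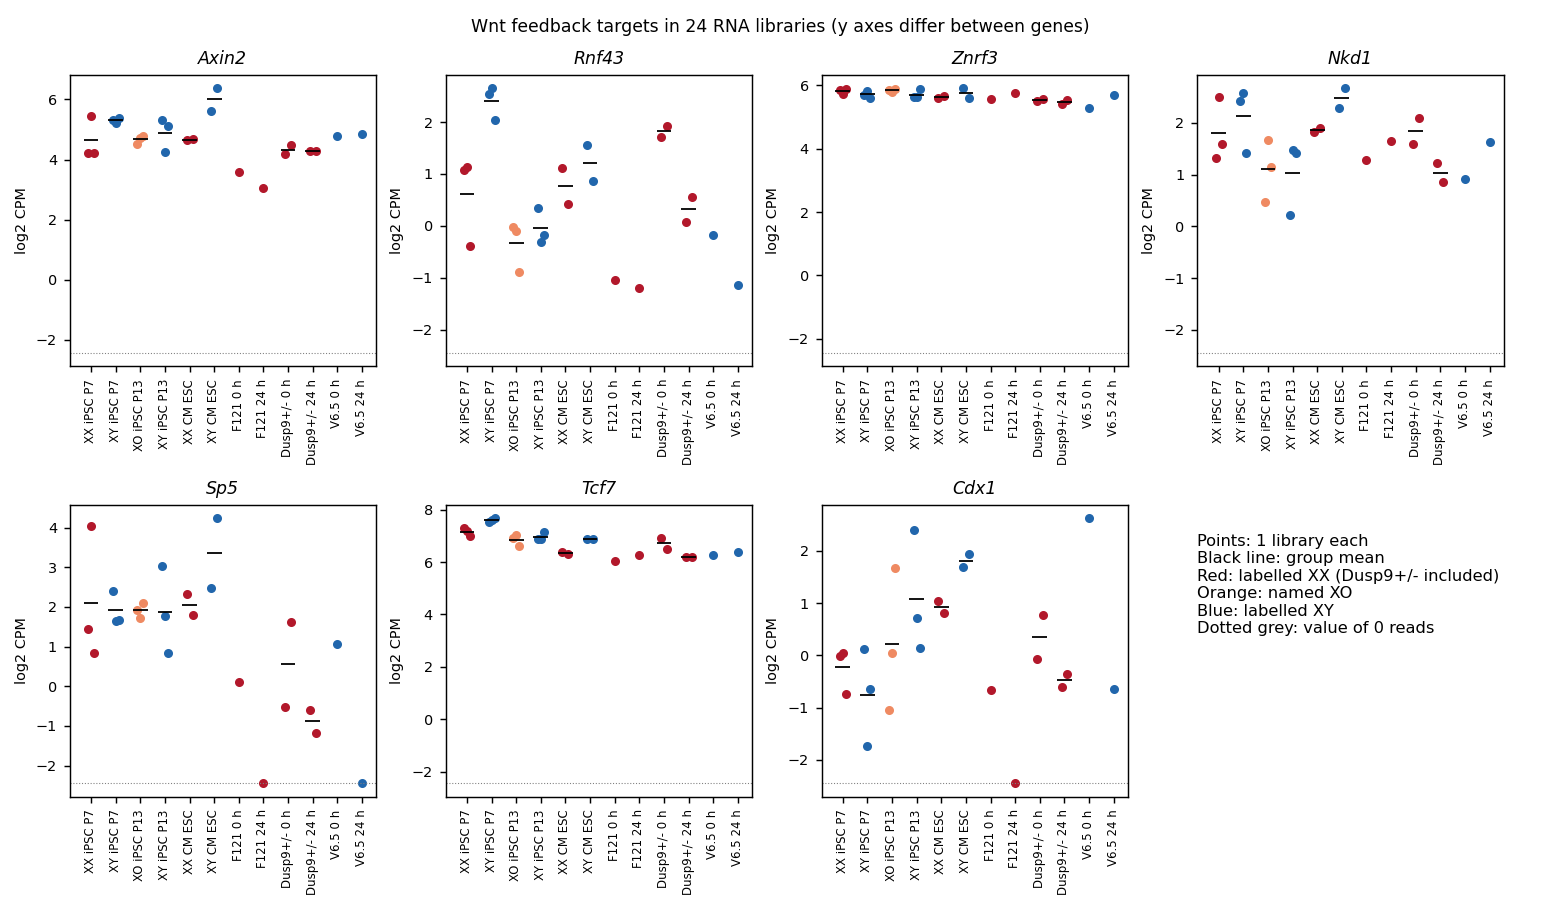
Each panel plots 1 gene's deposited log2 CPM (y axis) in 24 libraries by group (x axis). Points are libraries, black lines are group means, and the dotted line marks the value of 0 reads (-2.45). Znrf3 stays between 5.29 and 5.92, while Rnf43 is highest in the 3 male iPSC libraries at P7 and Sp5 reaches 0 reads in 2 libraries without LIF.

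At P7, Rnf43 and Tcf7 were lower in the female than in the male iPSCs. The Rnf43 level was 1.08 log2 CPM for LV20, 1.14 for LV21 and -0.38 for LV22, and it was 2.54 in LV4, 2.66 in LV8 and 2.04 in LV16. All 3 female libraries lay below all 3 male ones, and the log2 difference was -1.8 ± 0.48 (limma, standard error; 3.49-fold lower, adjusted p = 0.0459). Tcf7 stood at 7.32, 7.19 and 6.99 in the same female lines and at 7.54, 7.62 and 7.68 in the male ones. These groups did not overlap either, with a smaller difference of -0.45 ± 0.12 (1.36-fold lower, adjusted p = 0.0459). Called means an adjusted p under 0.05, two-sided, adjusted by Benjamini-Hochberg across every tested gene. So 2 of the 7 genes were called, both lower, where 4.78% of the 13978 genes tested were called either way and 1.72% lower. Non-overlapping groups with the female libraries lower occurred in 12.6% of genes.

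Both calls stood near the threshold. Rnf43 averaged 5.24 CPM in the 3 male libraries at P7 and 0.985 CPM in the other 9 iPSC libraries, so it passed the filter (a mean of 1 CPM over the libraries fitted) only through the group in which it was high. Without the filter the adjusted p was 0.0594 for Rnf43 and 0.0712 for Tcf7 (limma). Without any one of LV20, LV22, LV4, LV8 or LV16 at P7 neither was called, with an adjusted p of 0.0856 to 0.221 for Rnf43 and 0.0697 to 0.219 for Tcf7, although the difference kept its sign. Without LV21, whose X-linked output went against its label, both were called, with -2.06 (adjusted p = 0.0224) for Rnf43 and -0.46 (adjusted p = 0.0359) for Tcf7. Calls were then more common in general, with 1727 genes called without LV21 and 668 with all libraries.

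Axin2 at P7 depended on LV21. Its level was 4.23 log2 CPM for LV20, 5.46 for LV21 and 4.23 for LV22, against 5.32, 5.21 and 5.40 in the male lines LV4, LV8 and LV16. LV21 lay above every male library and the other 2 female libraries lay below them. With all libraries the difference of -0.67 ± 0.30 was not called (limma adjusted p = 0.218), and without LV21 it was -1.08 and called (adjusted p = 0.00889). The genes called in all rose from 668 to 1727 without LV21. LV21 was also the highest iPSC library for Sp5, at 4.05 against 1.45 and 0.83 in the other female lines and 1.65 to 2.40 in the male lines. The Sp5 difference of 0.20 ± 0.68 (adjusted p = 0.899) turned to -0.77 without LV21 (adjusted p = 0.374). The summed level of primitive streak and mesendoderm markers (8 of 9 listed genes were in the table) was 145 CPM in LV21, 24.6 and 26.2 CPM in the other female lines and 23.8 to 66.3 CPM in the male lines. The streak gene T, a known Wnt target, stood at 6.36 log2 CPM in LV21 against 2.48 to 5.14 in the other P7 libraries. T is part of that sum, so the sum does not separate streak cells from Wnt target levels. None of the 4 tested markers of this list was called between the sexes. The part of streak or mesendoderm cells in the Axin2 and Sp5 values was not tested.

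The other 3 genes did not differ by test at P7. Cdx1 differed by 0.52 ± 0.75, Nkd1 by -0.32 ± 0.48 and Znrf3 by 0.11 ± 0.11 on the log2 scale, with adjusted p from 0.585 to 0.752 (limma). Over the 7 genes the median difference was -0.32, against 0 over all genes tested.

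Elsewhere in the pathway, some genes that act on Wnt secretion and at the receptor differed between the sexes at P7 in both directions. Across all genes 4.78% were called. Of 5 tested Wnt secretion and R-spondin genes, 1 was called higher in the female lines. This was Porcn, the X-linked acyltransferase that Wnt proteins need for secretion, with 1.54 ± 0.27 (2.92-fold higher, limma adjusted p = 0.00907). Of 11 tested antagonists 2 were higher and 1 lower. Notum, a secreted enzyme that removes the lipid from Wnt proteins, was 3.95-fold higher, and the membrane antagonist Apcdd1 was 2.33-fold higher. Both are also counted among other Wnt targets, of which 2 of 11 were called. The antagonist called lower was Kremen1, a Dkk receptor, with -0.53 ± 0.12. Of 16 tested receptors 2 were called lower, Fzd7 with -0.67 ± 0.14 and the R-spondin receptor Lgr4 with -0.34 ± 0.09. Of 14 transducers the X-linked Amer1, which binds the tumour suppressor Apc, was called higher with 0.58 ± 0.15. Ligands (8 tested) and TCF/LEF factors with their cofactors (11 tested) had no call, with 0 and 3 genes at an unadjusted p under 0.05. Without LV21 each of these 7 called genes was still called in the same direction, Porcn with 1.85 (adjusted p = 0.00037) and Notum with 2.24 (adjusted p = 0.00423). In that fit 1727 genes were called, against 668 with all libraries.

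With passage, Rnf43 and Tcf7 fell in the male lines. Rnf43 went from 2.54 to 0.34 log2 CPM in LV4, from 2.66 to -0.31 in LV8 and from 2.04 to -0.17 in LV16. It was lower at P13 in all 3 male lines, with no overlap between passages, and the fitted change was -2.46 ± 0.48 (limma, 5.52-fold lower, adjusted p = 0.00662). Tcf7 went from 7.54 to 6.89, from 7.62 to 6.90 and from 7.68 to 7.14 in the same lines. Its change of -0.64 ± 0.12 was 1.56-fold lower (adjusted p = 0.00549), and both calls held without any one of the 6 male libraries. Rnf43 again passed the filter only through the male libraries at P7, and without the filter it was called with an adjusted p of 0.0138. Among all genes 13% were called in the male lines, 5.82% lower, and 18.3% had lower and non-overlapping values at P13.

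**Figure D2:**
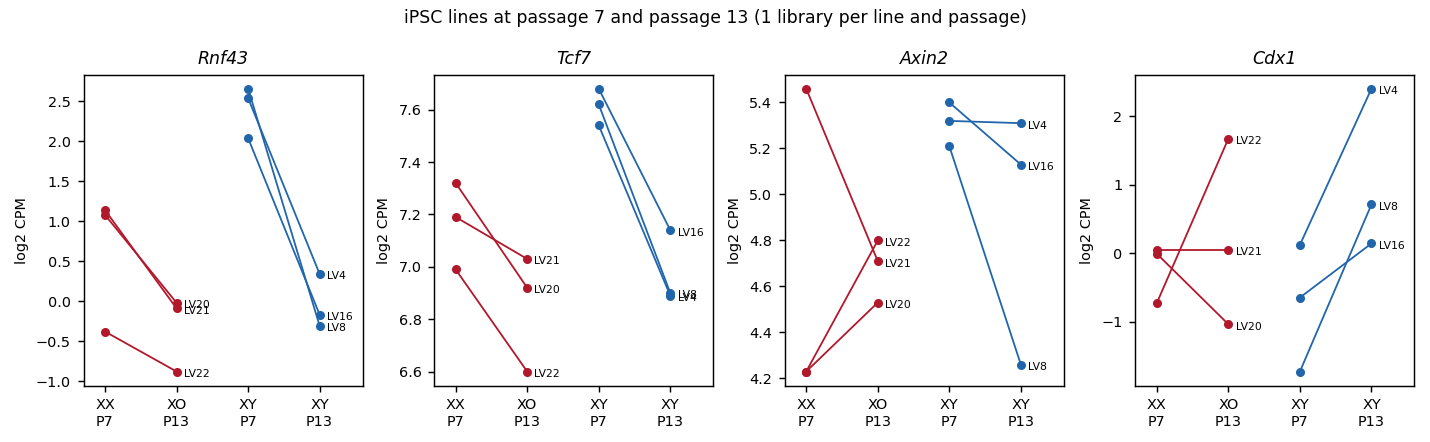
Each panel plots 1 gene's log2 CPM (y axis) in the 6 iPSC lines at P7 and P13 (x axis), with a line joining the 2 libraries of each cell line. Rnf43 and Tcf7 are lower at P13 in all 6 lines, and the male lines start higher and end near the female lines.

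In the female lines the same 2 genes had lower values at P13 without a call. Rnf43 went from 1.08 to -0.02 log2 CPM in LV20, from 1.14 to -0.09 in LV21 and from -0.38 to -0.88 in LV22, a change of -0.94 ± 0.48 (limma adjusted p = 0.23). Tcf7 was lower by 0.17 to 0.40 in each line, a change of -0.32 ± 0.12 (adjusted p = 0.107). Without LV21 at P7 the changes were -0.68 (adjusted p = 0.426) and -0.31 (adjusted p = 0.139), and without LV22 at P13 they were -0.67 (adjusted p = 0.482) and -0.19 (adjusted p = 0.343). With the cell line as a block and all libraries, Tcf7 was called (adjusted p = 0.0387). None of the 7 genes was called here without the block, by limma or limma-voom, 1 had an unadjusted p under 0.05, and 9% of all genes were called. The difference between the sexes in this change was 1.52 ± 0.68 for Rnf43 (adjusted p = 0.547) and 0.32 ± 0.17 for Tcf7 (adjusted p = 0.598), so a larger fall in the male lines was not shown. For the other 5 genes it ran from -1.38 ± 1.06 for Cdx1 to 0.45 ± 0.43 for Axin2, with adjusted p from 0.717 to 0.982. In that test no gene of 13978 was called by limma or limma-voom, and 1242 genes, 1 of the 7 among them, had an unadjusted p under 0.05.

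By P13 the sexes were close for these genes. Rnf43 stood at -0.88 to -0.02 log2 CPM in the lines named XO and at -0.31 to 0.34 in the XY lines. The difference of -0.28 ± 0.48 did not pass (limma adjusted p = 0.999). Tcf7 stood at 6.6 to 7.03 and at 6.89 to 7.14, a difference of -0.13 ± 0.12. Without LV22 at P13 the differences were -0.01 for Rnf43 and 0.00 for Tcf7. Cdx1 differed by -0.86 ± 0.75, Axin2 by -0.22 ± 0.30, Znrf3 by 0.13 ± 0.11, Nkd1 by 0.07 ± 0.48 and Sp5 by 0.03 ± 0.68. None of the 7 genes was called at P13 by limma or limma-voom, none had an unadjusted p under 0.05, and 0.0286% of all genes were called.

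Cdx1 had higher values at P13 in the male lines. It went from 0.12 to 2.40 log2 CPM in LV4, from -1.73 to 0.71 in LV8 and from -0.65 to 0.14 in LV16. The passages did not overlap, which held for 17.9% of genes in this direction, but the change of 1.84 ± 0.75 was not called (limma adjusted p = 0.115). Cdx1 averaged 2.49 CPM in the male libraries at P13 and 0.856 CPM in the other iPSC libraries. It therefore passed the filter only through the group in which it was high. Its values at P7 rest on 8 reads in LV4, 1 in LV8 and 5 in LV16. In the female lines Cdx1 was 2.40 higher in LV22, the same to the second decimal in LV21 and lower in LV20, with -1.04. Nkd1 changed by -1.10 ± 0.48 in the male lines (adjusted p = 0.14) and by -0.71 ± 0.48 in the female lines (adjusted p = 0.373). Axin2, Sp5 and Znrf3 were not called with passage in either sex. They changed by -0.41 ± 0.30, -0.03 ± 0.68 and 0.00 ± 0.11 in the male lines and by 0.04 ± 0.30, -0.19 ± 0.68 and 0.02 ± 0.11 in the female lines.

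The libraries of the 2 passages also differed in fibroblast markers. The summed level of 12 such markers was 337 to 475 CPM at P7 and 643 to 1720 CPM at P13. In the male lines 10 of 12 markers were called higher, against 7.23% of all genes. In the female lines 6 of 12 were called higher, against 4.32% of all genes. The count for the female lines is given with all libraries only. The growth protocol of other samples of the series names male feeder cells. The part of such cells in the passage results was not tested.

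Outside the 7 genes, each list of pathway genes held at least 1 gene called with passage in the male lines. Across all genes 13% were called in that comparison. The ligand Wnt5a was 2.81-fold higher at P13 (limma adjusted p = 0.0228), the only call among 8 tested ligands. Of 5 secretion and R-spondin genes, Porcn was 2.59-fold and the R-spondin Rspo2 2.97-fold higher. Of 11 antagonists, Dkk2 was 4.07-fold and Notum 3.56-fold higher, and Kremen1 was called lower with -0.75 ± 0.12. Of 11 other targets 4 were higher and 1 lower, including Cd44 with a 3.97-fold and Ccnd1 with a 1.86-fold higher level. The target called lower was Cdx4, a homeobox gene related to Cdx1, with a log2 change of -2.26 ± 0.62, while Cdx1 had higher values. Of 11 TCF/LEF factors and cofactors, Tle4 and Tcf7l1 were higher and Tle3 lower. The co-receptor Lrp5 was called lower with -0.42 ± 0.12, 1 of 16 receptors, and so were 2 of 14 transducers, the Dishevelled gene Dvl2 (-0.40 ± 0.10) and the tankyrase Tnks2 (-0.28 ± 0.09). Wnt5a (2.99-fold), Dkk2 (3.13-fold), Cd44 (3.04-fold) and Tle4 (1.8-fold) were also called higher at P13 in the female lines, as was Lgr4 with 0.45 ± 0.09, while the receptor Fzd3 (-0.75 ± 0.18) and Amer1 (-0.60 ± 0.15) were called lower. In the female lines 9% of all genes were called. These 7 pathway genes were still called without LV21 at P7, where 2079 genes were called against 1258 with all libraries. Without LV22 at P13, Wnt5a (1.33, adjusted p = 0.0842), Dkk2 (1.35, adjusted p = 0.115) and Amer1 (-0.54, adjusted p = 0.0765) were not. These genes moved while the fibroblast marker sum moved, and its part in them was not tested.

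In undifferentiated WT ESCs, Axin2 and Tcf7 were lower in XX than in XY lines. Axin2 stood at 4.64 log2 CPM in CM1, 4.68 in CM2 and 3.58 in F121, and at 5.63 in CM3, 6.39 in CM7 and 4.80 in V6.5. Every XX library lay below every XY library. The difference, with the experiment as a covariate, was -1.31 ± 0.20 (limma, 2.48-fold lower, adjusted p = 0.00683). Tcf7 stood at 6.39, 6.29 and 6.06 in the XX lines and at 6.87, 6.88 and 6.26 in the XY lines. The XX lines were lower within each experiment, with -0.42 ± 0.10 (1.34-fold lower, adjusted p = 0.047). F121 comes from the musculus by castaneus cross and V6.5 is Mus musculus, so sex and cross cannot be told apart in that pair. Without F121 the differences were -1.35 for Axin2 and -0.53 for Tcf7. The 2 called genes compare with 7.19% of 14193 genes called and 2.32% called lower, and lower non-overlapping values occurred in 9.17% of genes.

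Both ESC calls rested on few lines. Axin2 was not called without CM1 (adjusted p = 0.0501) or without CM2 (adjusted p = 0.0566), with differences of -1.29 and -1.31. Tcf7 was not called without any one of CM1, CM2, CM3 or CM7, with an adjusted p of 0.129 to 0.231.

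Cdx1 and Sp5 had lower values in XX ESCs without a call. Cdx1 stood at 1.04, 0.81 and -0.66 log2 CPM in CM1, CM2 and F121 and at 1.69, 1.94 and 2.63 in CM3, CM7 and V6.5. The groups did not overlap, with a difference of -1.69 ± 0.52 (limma adjusted p = 0.0918) that was -0.89 without F121. Sp5 stood at 2.32, 1.8 and 0.11 in the XX lines and at 2.47, 4.24 and 1.06 in the XY lines, a difference of -1.18 ± 0.46 (adjusted p = 0.169). Rnf43 differed by -0.59 ± 0.46, Nkd1 by -0.29 ± 0.34 and Znrf3 by 0.01 ± 0.14, with adjusted p from 0.486 to 0.975. Over the 7 genes the median was -0.59, against -0.01 over all genes tested. CM7 was the highest of the 24 libraries for Axin2, Nkd1 and Sp5, and it also had the highest streak and mesendoderm marker sum, 321 CPM, against 17.0 to 60.4 CPM in the other 5 libraries. Without CM7 Axin2 was still called (-1.08, adjusted p = 0.013), the Sp5 difference was -0.64 and that of Nkd1 -0.09.

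Some receptors and antagonists also differed between XX and XY ESCs, where 7.19% of all genes were called. The Frizzled receptors Fzd7 (-0.61 ± 0.09) and Fzd5 (-0.68 ± 0.11) were called lower in XX lines, 2 of 17 receptors tested. Fzd7 was also called lower in female iPSCs at P7. The secreted antagonist Sfrp5 was 4.36-fold and Apcdd1 1.75-fold higher, 2 of 12 antagonists tested, and the ligand Wnt7b was 1.97-fold higher, 1 of 7 ligands. Btrc, which recognises phosphorylated beta-catenin for degradation, was 1.53-fold higher. Tnks, which destabilises Axin proteins, and Bcl9, a beta-catenin cofactor, were called lower with -0.41 ± 0.10 and -0.65 ± 0.12. Tnks (limma adjusted p = 0.0499) and Apcdd1 (adjusted p = 0.0476) passed narrowly. How these pathway calls depend on single lines was not tested.

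**Figure D3:**
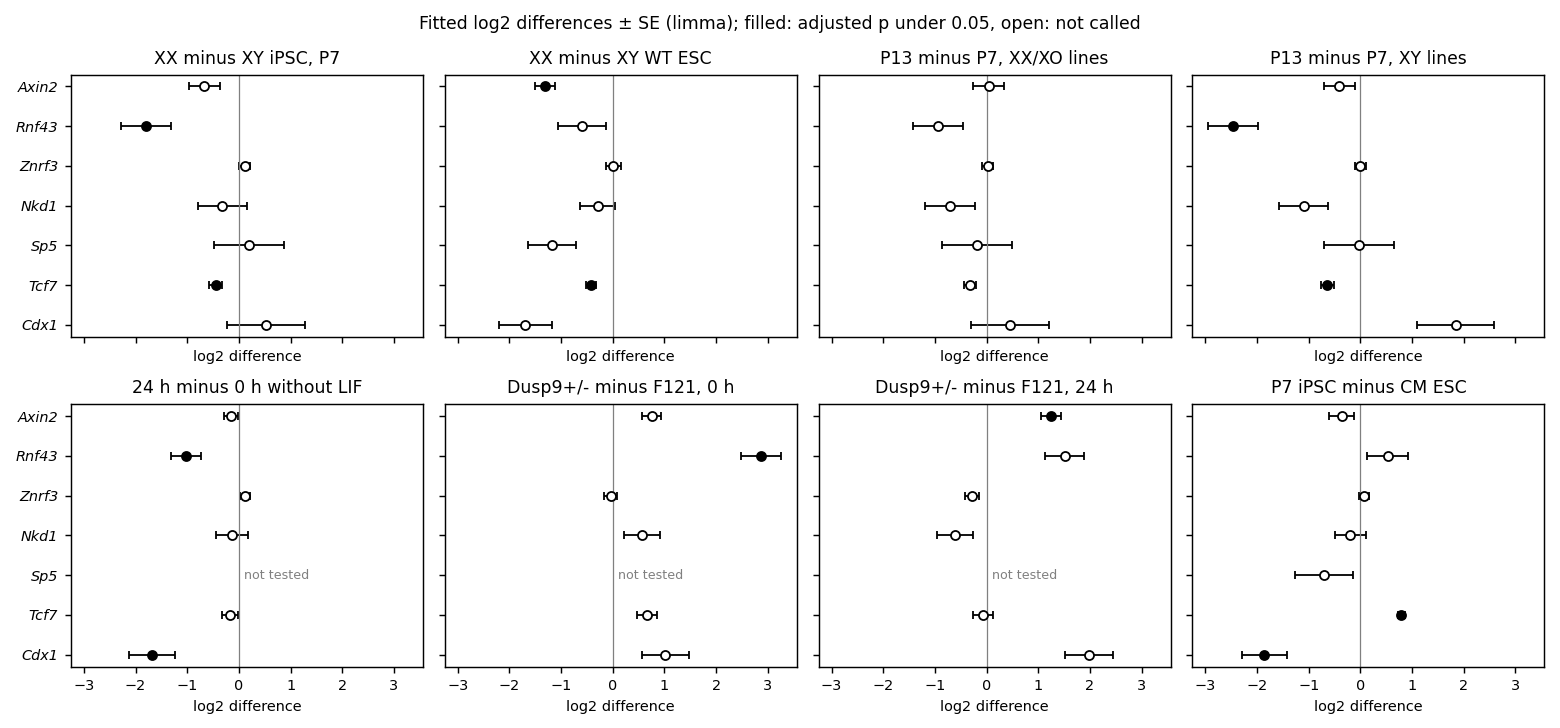
Each panel plots the fitted log2 difference ± standard error (x axis, limma) of the 7 genes (y axis) in 1 comparison. Filled points have an adjusted p under 0.05. Filled points lie below 0 for Rnf43 and Tcf7 in the P7 iPSCs and with passage in XY lines, and for Axin2 and Tcf7 in WT ESCs, while the Znrf3 points stay near 0.

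Between P7 iPSCs and CM ESCs, with labelled sex as a covariate, Tcf7 was higher and Cdx1 lower in the iPSCs. Tcf7 stood at 6.99 to 7.68 log2 CPM in the 6 iPSC libraries and at 6.29 to 6.88 in the 4 ESC libraries, without overlap (as for 11.1% of genes with higher values). Its difference was 0.79 ± 0.07 (limma, 1.72-fold higher, adjusted p = 4.13e-06). Cdx1 stood at -1.73 to 0.12 in the iPSCs and at 0.81 to 1.94 in the ESCs, also without overlap (11.2% of genes with lower values), with -1.86 ± 0.44 (3.63-fold lower, adjusted p = 0.00465). Cdx1 averaged 0.593 CPM in the iPSCs and passed the filter only through the ESC libraries, and without the filter its adjusted p was 0.00564. Sp5 differed by -0.70 ± 0.56, Rnf43 by 0.53 ± 0.40, Axin2 by -0.36 ± 0.24, Nkd1 by -0.20 ± 0.30 and Znrf3 by 0.07 ± 0.09, none of them called. The transcriptomes differed broadly, with 37.2% of 14106 genes called. Without LV21 at P7, Axin2 (-0.58, adjusted p = 0.00338) and Sp5 (-1.21, adjusted p = 0.0115) were called lower too. Cell origin, mouse cross and passage cannot be told apart here. The fibroblast marker sum was 337 to 475 CPM in these iPSCs and 676 to 801 CPM in the ESCs, and its part was not tested.

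Most called targets and cofactors outside the 7 genes were lower in the iPSCs than in the CM ESCs. Across all genes 18.7% were called lower and 18.5% higher. Of 13 other targets tested 5 were lower and 1 higher, and the 4 with the smallest adjusted p were the transcription factor gene Myc (-1.42 ± 0.18), Cd44 (-1.37 ± 0.17), the cyclin gene Ccnd1 (-0.81 ± 0.11) and Tnfrsf19 (-1.02 ± 0.28). Of 11 TCF/LEF factors and cofactors 4 were lower, namely Tcf7l2 (-0.88 ± 0.17), Tcf7l1 (-0.46 ± 0.12), Tle3 (-0.44 ± 0.09) and Tle4 (-0.32 ± 0.09), while Tcf7 itself was higher. Both secretion genes tested, Wls (-1.05 ± 0.22) and Porcn (-1.14 ± 0.25), were lower. Of 17 receptors 2 were higher and 5 lower, with Lrp6 (0.45 ± 0.06) and Fzd3 (0.84 ± 0.17) higher and Lgr4 (-0.36 ± 0.07) and Ror2 (-0.45 ± 0.11) among the lower ones.

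Of 11 antagonists tested 3 were higher and 1 lower in the iPSCs. Kremen1 was 1.84-fold, Sfrp2 2.57-fold and Sfrp4 2.41-fold higher, and Apcdd1 was lower with -0.66 ± 0.22. Of 8 ligands Wnt9a was 2.73-fold higher and Wnt5b lower (-1.50 ± 0.52). Of 14 transducers Dvl2 (0.67 ± 0.09) and the casein kinase gene Csnk1a1 (0.26 ± 0.07) were higher and Btrc (-0.71 ± 0.12) and Amer1 (-0.36 ± 0.10) lower. All 24 pathway genes named in this comparison were called in the same direction without LV21 (limma).

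After 24 h without LIF, Rnf43 and Cdx1 fell. Cdx1 went from 6 reads to 0 in F121 and from 60 reads to 5 in V6.5, and the Dusp9+/- lines held 9 and 19 reads at 0 h and 6 and 7 at 24 h. The fitted change, with genotype as a covariate, was -1.68 ± 0.44 on the log2 scale (limma, 3.21-fold lower, adjusted p = 0.0221). Rnf43 went from 4 reads to 3 in F121 and from 7 to 3 in V6.5, and the Dusp9+/- lines held 36 and 45 reads at 0 h and 11 and 15 at 24 h. Its change was -1.03 ± 0.29 (2.04-fold lower, adjusted p = 0.0294). Cdx1 passed the filter only through V6.5 at 0 h, with 6.01 CPM against a mean of 0.612 CPM in the other 7 libraries, and Rnf43 only with the second Dusp9+/- line at 0 h (mean 0.97 CPM without it), so both entered the test through libraries at 0 h, where they were high. Without the filter the adjusted p was 0.0259 for Cdx1 and 0.0308 for Rnf43. Most of the drop in Rnf43 reads was in the Dusp9+/- lines and most of that in Cdx1 reads in V6.5. These 8 libraries held 10241419 to 13346033 reads, and 32.7% of 14335 genes were called, 15.9% lower.

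**Figure D4:**
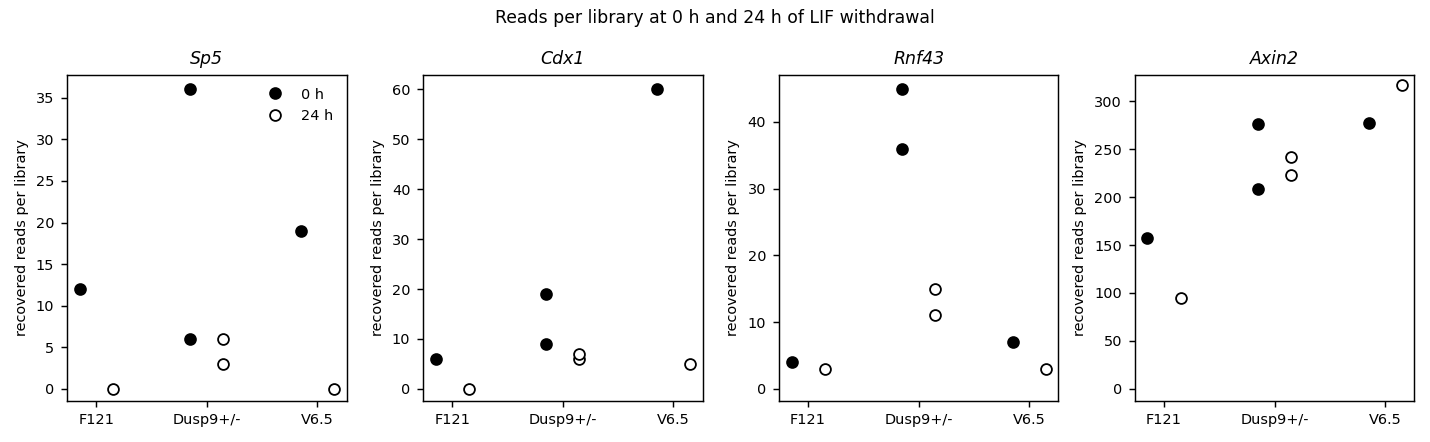
Each panel plots recovered reads per library (y axis) at 0 h (filled) and 24 h (open) of LIF withdrawal by line (x axis, the 2 Dusp9+/- lines together). Sp5 has 0 reads at 24 h in F121 and V6.5, Cdx1 drops from 60 reads to 5 in V6.5, and Axin2 stays between 209 and 317 reads outside F121.

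These calls were not robust to single libraries. Rnf43 was not called without the first Dusp9+/- line at 0 h, without either Dusp9+/- library at 24 h or without either V6.5 library, with an adjusted p of 0.0652 to 0.0805. Cdx1 was not called without the second Dusp9+/- line at 0 h or without either F121 library, with an adjusted p of 0.0563 to 0.0661. Without the second Dusp9+/- line at 0 h Rnf43, and without V6.5 at 0 h Cdx1, fell below the filter and was not tested. With a pseudocount of 5 neither was called.

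Sp5 had too few reads to pass the filter of 1 CPM on average in this experiment. It went from 12 reads to 0 in F121 and from 19 reads to 0 in V6.5, and a count of 0 allows up to 3 reads, or 0.251 and 0.262 CPM. In the Dusp9+/- lines it had 6 and 36 reads at 0 h and 6 and 3 at 24 h. A fit of all 16687 genes without the filter gave a change of -2.24 ± 0.54 (limma adjusted p = 0.0211). Axin2 (-0.15 ± 0.13), Tcf7 (-0.17 ± 0.16), Nkd1 (-0.13 ± 0.31) and Znrf3 (0.12 ± 0.10) had no call at 24 h, with adjusted p from 0.405 to 0.771. The fibroblast marker sum was also lower at 24 h in the WT lines, from 946 to 309 CPM in F121 and from 1020 to 270 CPM in V6.5, and its part in these values was not tested.

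Pathway genes changed in both directions at 24 h, where 32.7% of all genes were called. Called higher and lower were 2 and 0 of 9 ligands, 1 and 2 of 4 secretion and R-spondin genes, 1 and 3 of 16 receptors, 1 and 4 of 10 antagonists, 2 and 2 of 14 transducers, 2 and 3 of 11 TCF/LEF factors and cofactors, and 4 and 3 of 11 other targets. Lef1, the TCF/LEF factor that is itself a Wnt target, was 3.75-fold higher at 24 h (limma adjusted p = 0.00139). The ligands Wnt8a and Wnt3 were 3.86-fold and 2.30-fold higher, and the receptor tyrosine kinase Ror1 was 3.59-fold higher. Cdx4 was 3.15-fold higher, opposite in sign to its relative Cdx1. The streak gene T was called lower with -1.34 ± 0.27. The antagonists called lower included Dkk3 (-2.05 ± 0.27), Sfrp1 (-1.07 ± 0.11) and Apcdd1 (-0.93 ± 0.16), and Sfrp4 was 2.00-fold higher. The receptors Fzd5 (-1.05 ± 0.11), Fzd10 (-0.49 ± 0.14) and Ror2 (-0.50 ± 0.16) were lower. The R-spondin gene Rspo2 (-1.31 ± 0.30) and the Wnt carrier gene Wls (-1.07 ± 0.35) were lower and Rspo1 was 1.59-fold higher. The corepressor genes Tle1 (-0.59 ± 0.08) and Tle3 (-0.47 ± 0.10) were lower and Tle4 was 1.61-fold higher. Among transducers Gsk3b (-0.35 ± 0.06) and Csnk1a1 (-0.22 ± 0.06) were lower, and Amer1 (1.43-fold) and Dvl1 (1.38-fold) higher.

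With LIF, Rnf43 was higher in the Dusp9+/- lines than in F121. The 2 lines held 3.24 and 3.82 CPM computed from the recovered reads (95% exact Clopper-Pearson intervals 2.27 to 4.49 and 2.78 to 5.11), and F121 held 0.30 (0.0817 to 0.767, from 4 reads). The intervals did not overlap, and cover counting error only. The log2 difference was 2.87 ± 0.38 (limma, 7.31-fold higher, adjusted p = 0.0214), and without the first Dusp9+/- line it was called with 2.98 (adjusted p = 0.0257). Without the second line Rnf43 fell below the filter and was not tested. The filter used the deposited scale, which differs somewhat from CPM computed from the recovered reads. On the deposited scale the Dusp9+/- lines at 0 h averaged 3.36 CPM and the other 6 libraries 0.615 CPM. Rnf43 therefore entered the test only through the group in which it was high. Without the filter its adjusted p was 0.0477. In this comparison 8.91% of 14335 genes were called and 4.81% higher, and values in both lines above F121 occurred in 39.7% of genes. F121 is 1 library, assumed in the fit to vary like the Dusp9+/- lines.

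Axin2, Tcf7 and Cdx1 had higher values in the Dusp9+/- lines with LIF without passing. Axin2 stood at 4.18 and 4.48 log2 CPM against 3.58 in F121, a difference of 0.75 ± 0.19 (limma adjusted p = 0.0614). Tcf7 stood at 6.93 and 6.5 against 6.06, with 0.66 ± 0.19 (adjusted p = 0.0788). Axin2 was called without the first line (0.90, adjusted p = 0.0344), and Tcf7 without the second (0.87, adjusted p = 0.0194). Cdx1 differed by 1.02 ± 0.46 (adjusted p = 0.196), Nkd1 by 0.56 ± 0.35 and Znrf3 by -0.04 ± 0.13.

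At 24 h without LIF the called gene was Axin2. It stood at 4.28 and 4.27 log2 CPM in the Dusp9+/- lines and at 3.04 in F121, a difference of 1.24 ± 0.19 (limma, 2.35-fold higher, adjusted p = 0.0428). It was not called without the first line (adjusted p = 0.105) or the second (adjusted p = 0.169), although the difference stayed at 1.23 and 1.24. Rnf43 had 11 and 15 reads against 3, with 1.51 ± 0.38 (adjusted p = 0.0872). Cdx1 had 6 and 7 reads against 0 in F121, where a count of 0 allows up to 3, and was not called (adjusted p = 0.079). Nkd1 (-0.61 ± 0.35), Znrf3 (-0.28 ± 0.13) and Tcf7 (-0.07 ± 0.19) had lower values in both Dusp9+/- lines than in F121, without a call. Among all genes tested, both lines lay below F121 in 44% and above it in 40.3%. In this comparison 2.55% of genes were called and 1.57% higher. For Rnf43 the change over 24 h differed between the Dusp9+/- lines and F121 by -1.36 ± 0.54 (adjusted p = 0.399), and for Axin2 by 0.48 ± 0.27 (adjusted p = 0.506). For Tcf7 it differed by -0.72 ± 0.26, for Nkd1 by -1.18 ± 0.49, for Cdx1 by 0.96 ± 0.65 and for Znrf3 by -0.24 ± 0.19, with adjusted p from 0.365 to 0.641. None of the 6 genes tested was called in that interaction by limma or limma-voom, 2 had an unadjusted p under 0.05, and of 14335 genes none was called and 1766 had an unadjusted p under 0.05.

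V6.5, the male line, gives the level of an XY genotype in the same experiment. Its Axin2 stood at 4.80 log2 CPM at 0 h and 4.86 at 24 h, above all other libraries of the experiment. Its Rnf43, at -0.18 and -1.13, lay below both Dusp9+/- lines at each time and close to F121, at -1.05 and -1.20. The 2 genes thus ordered the lines differently. V6.5 differs from the others in mouse cross as well as in sex, and the 2 cannot be told apart.

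Marker sums separated the Dusp9+/- lines from F121 as well. The fibroblast marker sum was 119 and 254 CPM in the Dusp9+/- lines at 0 h against 946 CPM in F121, with 5 of 12 markers called lower. The trophoblast marker sum was 312 and 502 CPM against 125 CPM at 0 h, and 469 and 496 CPM against 69.1 CPM at 24 h, with 3 and 4 of 6 tested markers called higher. The part of such cells in the Rnf43 and Axin2 differences was not tested.

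Ligands of the pathway were also higher in the Dusp9+/- lines with LIF. Wnt8a was 5.72-fold, Wnt3 5.68-fold and Wnt9a 2.74-fold higher (limma adjusted p = 0.0339, 0.0481 and 0.04), 3 of 9 ligands tested. The ligand folds with LIF are against 1 library, F121, where Wnt3 stood at -1.29 and Wnt8a at 0.30 log2 CPM. A gene with 0 reads stands at -2.45, so the Wnt3 fold rests on few reads in F121. Across all genes 4.81% were called higher and 4.1% lower with LIF. At 24 h 1.57% were called higher and 0.984% lower. Fzd7 was 2.18-fold and the co-receptor Lrp5 1.82-fold higher, and Fzd5 was called lower with -0.69 ± 0.13. The antagonist Sfrp1 was lower with -1.01 ± 0.15, and so was the corepressor Tle4 with -0.87 ± 0.09, while Amer1 was 1.53-fold higher. At 24 h Sfrp1 was again lower (-1.02 ± 0.15), 1 of 10 antagonists, and Wnt7b was 7.61-fold higher, 1 of 9 ligands. The Apc relative Apc2 was 3.71-fold higher, 1 of 14 transducers. The cofactor Bcl9l was 3.09-fold higher, 1 of 11 TCF/LEF factors and cofactors. Without the filter 200 genes of the whole table were called with LIF and 0 at 24 h, so the 24 h pathway calls did not hold. How the pathway calls against F121 depend on single lines was not tested.

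Across all 24 libraries the 7 genes did not move as 1 group. As a description over libraries that share lines and experiments, Pearson's r with Axin2 was 0.71 for Sp5, 0.52 for Cdx1, 0.51 for Tcf7, 0.48 for Rnf43, 0.39 for Nkd1 and 0.11 for Znrf3. Ranked by that r among 14241 genes, Sp5 was at place 64 and the other 5 between 860 and 5615. The 5 genes most like Axin2 were Nrarp (r = 0.87), Tead2 (0.86), Lysmd3 (0.83), Plk5 (0.83) and Nt5e (0.82). Nrarp, which encodes a Notch-regulated ankyrin repeat protein, had r = 0.80 with Axin2 over the 12 iPSC libraries and 0.93 over the 12 ESC libraries. Among pairs of the 7 genes, the highest r within 1 cell origin was that of Rnf43 and Tcf7, 0.93 over the iPSC libraries, where it was 0.67 over the ESC libraries. Cdx1 and Tcf7 had r = -0.60 over the iPSC libraries and 0.41 over the ESC libraries.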

How the data were processed

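RNA was extracted with TRIzol and read single-end from stranded mRNA libraries, per the labels' protocols. Of 52 samples 32 are RNA and 20 are chromatin accessibility samples, not analysed here. The authors deposited log2 CPM for 16687 genes in 24 columns, a log2 unit other than counts. In the withdrawal experiment the labels list a technical repeat for each library (8 in all) that has no column of its own, and how the repeats were used is not given in the sources used here. STAR 2.5.3a, featureCounts, edgeR and GRCm38 appear in the submitters' processing notes, without their roles. Taken out of the log, every value (100%) was an offset of 0.183 CPM plus a whole number of reads, to within 0.01 read, and these steps gave the reads.

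The tests used limma 3.58.1 (R 4.3.3; lmFit, then eBayes with trend) on the deposited log2 values of genes averaging 1 CPM or more across the libraries fitted. The 12 iPSC libraries shared 1 fit of 4 group means, leaving 8 residual degrees of freedom. WT ESCs (6 libraries) were fitted with the experiment as covariate (3 residual degrees of freedom), iPSCs against CM ESCs with sex (7), 24 h against 0 h with genotype (4), and the Dusp9+/- comparisons with 6 means of genotype and time (2). The planned pseudocount of 1 was for linear values, and because the table is already on a log2 scale it became an alternative, with one of 5. The fits were tested on simulated data. Nothing in the labels says that libraries of a group come from separate cultures beyond their separate lines, so p-values measure the spread between these libraries.

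The 7 genes, the pathway and marker lists and the comparisons were chosen with earlier results of these data known, and support nothing by their choice. All 7 genes are named in every comparison (Sp5 by its reads in the withdrawal experiment, where it was below the filter), with up to 4 called genes of each pathway list (smallest adjusted p) and the 5 genes most like Axin2. The streak marker T at P7 was named outside that rule. Libraries of an iPSC line at both passages come from the same line, per the labels. The main passage tests compared group means without this pairing, and the line as a block was an alternative. Deviations of the 2 libraries of a line from their group means correlated with r between -0.04 and 0.10. Alternatives were the pseudocounts, no filter or one of 4 CPM, limma-voom on reads, median centring, the spread of the compared groups alone, the line as a block, the CM lines alone, and leaving out each library.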

Additional observations from a re-analysis of the deposited data

How the results depend on the processing

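Counts of the 7 genes called moved with the settings as follows. At P7, 2 genes were called between the sexes, 0 without the filter, 1 with a mean of at least 4 CPM (which removes Rnf43), 1 with median centring and 1 with the spread of the compared groups alone, and 0 to 3 when a library was left out. With passage in the female lines the count was 0, and 1 with the line as a block. In the male lines it was 2, and 1 at 4 CPM. In WT ESCs it was 2, 1 without the filter and 0 to 2 when a library was left out. Between iPSCs and CM ESCs it was 2, 1 at 4 CPM and 2 to 4 when a library was left out. For 24 h against 0 h it was 2, 3 without the filter (which adds Sp5), 1 with a pseudocount of 1, 0 with a pseudocount of 5, 0 at 4 CPM and 0 to 1 when a library was left out. For Dusp9+/- against F121 at 0 h it was 1, 0 at 4 CPM and 1 to 2 when a library was left out. At 24 h it was 1, and 0 with a pseudocount of 5, without the filter, with limma-voom and when either Dusp9+/- line was left out. Apart from the 4 CPM filter, which leaves fewer of these genes in the test, the cause was not tested.

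None of the values that changed sign was called. Leaving out LV21 at P7 and LV22 at P13 together, chosen after seeing the data, gave -0.77 for Sp5 at P7, -0.05 for Sp5 at P13, 0.69 for Sp5, -0.05 for Znrf3 and -0.13 for Cdx1 with passage in the female lines, and 0.72 for Sp5 and -0.06 for Znrf3 in the difference of passage changes. Limma-voom gave -0.01 for Znrf3 with passage in either sex, 0.00 for Znrf3 and 0.05 for Sp5 in the difference of passage changes, and 0.03 for Znrf3 in Dusp9+/- at 0 h. Pseudocounts of 1 and 5 gave -0.01 and -0.05 for Sp5 at P13, and 0.01 and 0.04 for Sp5 with passage in the male lines. A pseudocount of 5 gave -0.02 for Cdx1 in the withdrawal interaction, and the CM lines alone gave -0.12 for Znrf3 in ESCs.

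Leaving out 1 library at a time gave these ranges where a sign changed. For Sp5 they were -0.77 to 0.84 at P7, -0.48 to 0.60 at P13, -0.83 to 0.78 with passage in the female lines, -0.60 to 0.49 in the male lines and -0.81 to 0.80 for the difference of the changes. For Znrf3 they were -0.03 to 0.05, -0.08 to 0.06 and -0.04 to 0.10 in the same 3 passage tests, -0.12 to 0.14 in ESCs and -0.08 to 0.00 for Dusp9+/- at 0 h. For Nkd1 they were -0.34 to 0.38 at P13, -0.02 to 0.76 for the difference of the passage changes and -0.42 to 0.10 for 24 h. For passage in the female lines they were -0.17 to 0.45 for Axin2 and -0.27 to 1.09 for Cdx1.

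With the line as a replicate block, the change with passage in the male lines had an adjusted p of 0.00678 for Rnf43 and 0.0026 for Tcf7, and the 24 h change 0.0493 for Rnf43 and 0.0378 for Cdx1 (limma). The block changed no other call among the 7 genes than that of Tcf7 in the female lines, and 11 of all genes were called for the difference of passage changes. The deviations of the Dusp9+/- lines at 0 h and 24 h correlated with r = -0.37 under the labelled numbers. With the numbers crossed 4493 genes were called at 24 h against 3607 as labelled, 2 of the 7 genes in each case.

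Counts over all genes moved more with single libraries. Leaving out 1 library gave 44 to 1727 genes between the sexes at P7 (668 with all, the highest without LV21), 174 to 2079 with passage in the female lines (1258), 429 to 2198 in the male lines (1823), 208 to 1682 in WT ESCs (1020), 3086 to 4158 at 24 h (4688), 1610 to 1953 for Dusp9+/- at 0 h (1277) and 1 to 104 at 24 h (366). For the difference of passage changes 145 genes were called without LV21 at P7 and 364 without both doubted libraries, and none of the 7 genes. Without the filter 440 genes were called at P7, 200 for Dusp9+/- at 0 h and 0 at 24 h, where limma-voom called 13 and a pseudocount of 5 called 178. The spread of the compared groups alone gave 428 at P7 and 436 with passage in the female lines, and the CM lines alone 1690 in ESCs. Few reads limit Rnf43, Cdx1 and Sp5 in the withdrawal experiment, where several libraries held fewer than 10.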
